A study of Drosophila melanogaster with 2 samples.

Results

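Binding of pebbled (peb), a zinc finger protein that regulates transcription and is also called hindsight, was examined at 8 genes that set whether a cell divides or endocycles: stg, fzr, CycE, dap, E2f1, Cdk4, CycD and Rbf. They were chosen by name from the 13945 protein-coding genes of the autosomes and the X. A gene was given every peak whose summit lay in its body or within 5000 bp of it. The data came from transcription factor ChIP-seq on whole Drosophila melanogaster embryos collected from 0 to 24 h, in 1 group of 2 biological replicates. All embryos came from a transgenic line that expresses peb fused to eGFP, and the fusion protein was precipitated with anti-GFP. The antibody label of both samples reads peb. Chromatin was sheared by sonication to 200 to 800 bp, and peaks were placed on dm6. What drives the fusion gene and whether untagged peb was still present were not given in the sources used here. Collections spanned all of embryogenesis, so all stages and tissues were pooled. There was no second condition and the replicates were called together and apart, so no test between groups was possible, and all counts below are descriptions set beside the same count over all genes.

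In the mitotic cycle a cell replicates its DNA in S phase and divides it in M phase. In the endocycle S phases follow each other with no division between them, and the cell becomes polyploid, as the embryonic salivary gland and gut do while larval tissues form. The switch requires loss of mitotic Cdk1 activity, which string (stg) promotes and the anaphase-promoting complex with fizzy-related (fzr) opposes, while Cyclin E and its regulators continue to drive S phase. In ovarian follicle cells, Notch signalling induces peb, and peb is needed there to turn stg off and enter the endocycle. In the embryo peb is best known from the amnioserosa, the midgut and the tracheal system.

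Each peak carried the authors' signal value, used here only to rank peaks within a list, and a score derived from the irreproducible discovery rate (IDR), which is low for peaks that rank alike in the inputs compared. The joint thresholded list of the experiment is called the joint list below, and its members joint peaks. It held 2845 peaks with signals from 2.04 to 1055 and a median of 73.6. The authors named a second list of the experiment conservative, with 2689 peaks. The thresholded lists held 1418 peaks for replicate 1 and 2054 for replicate 2. Every thresholded peak scored 830 or more, which corresponds to an IDR of at most 0.01001. Unthresholded ranked lists held 92933 entries for the experiment, 68609 for replicate 1 and 49814 for replicate 2. The lists state no read numbers, so depth is unknown here.

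Of the 8 genes, 4 had a joint peak, against 33.1% of all protein-coding genes. These were fzr and E2f1 with 2 peaks each, and CycE and Cdk4 with 1 each, 6 peaks in all. The genes without one were stg, dap, CycD and Rbf. A long gene has a wider window and more chances of a peak, and the 4 genes with one had the widest windows of the 8. These were 50.6 kb for E2f1, 30.6 kb for CycE, 22.2 kb for fzr and 16.0 kb for Cdk4. The other genes had 12.9 to 14.4 kb, against a median of 12.2 kb over all genes. No comparison at matched window length was made. A joint peak within 1000 bp of a transcription start site (TSS) of the gene itself was present at 3 of the 8, fzr, CycE and Cdk4, against 13.5% of all genes. The summits of these 3 peaks lay 530 to 643 bp from a TSS, and none of the 3 overlapped a thresholded peak of replicate 1. Any TSS of a gene counted, so a gene with several had more chances. Of the 3 genes, fzr has 2 TSSs, CycE 3 and Cdk4 5, while dap, CycD and Rbf have 1 each. Of the other genes without such a peak, stg has 2 TSSs and E2f1 5. A joint peak that overlapped a thresholded peak of each replicate by 1 bp or more was present at fzr alone among the 8, against 17.7% of all genes. In bulk embryos, binding in few cells and weak binding in many cells cannot be told apart.

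The sequences under the peaks of fzr, CycE and E2f1 are shown because these are the sites on which the results below turn. Each is the reference genome (dm6) within 100 bp of the summit, written 5′ to 3′ on the strand of its gene, which is the minus strand for all of them. The window at chrX:4666925-4667125 lies below the 3′ end of fzr, at the strongest peak of any of the 8 genes. The window chrX:4680053-4680082, upstream of fzr, is limited to 30 bases around its summit because it lies in a neighbour's 3′ UTR. The CycE window is chr2L:15747153-15747353. The 2 E2f1 windows, chr3R:21656781-21656981 and chr3R:21657008-21657208, belong to a pair of overlapping intron peaks. Capitals mark a match to GTGGGAA, the core of sites for Su(H), the DNA-binding effector of Notch.
fzr 3′ side: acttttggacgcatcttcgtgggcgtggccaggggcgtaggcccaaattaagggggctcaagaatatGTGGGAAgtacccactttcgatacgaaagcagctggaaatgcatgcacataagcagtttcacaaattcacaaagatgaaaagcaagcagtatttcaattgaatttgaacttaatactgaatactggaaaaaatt
fzr upstream: tttttttttttgttcttcgcttgtaaggtg
CycE intron: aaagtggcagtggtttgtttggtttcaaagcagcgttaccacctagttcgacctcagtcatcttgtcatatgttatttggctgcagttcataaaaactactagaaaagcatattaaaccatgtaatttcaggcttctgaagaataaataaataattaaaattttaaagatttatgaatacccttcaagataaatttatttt
E2f1 intron, summit 21656881: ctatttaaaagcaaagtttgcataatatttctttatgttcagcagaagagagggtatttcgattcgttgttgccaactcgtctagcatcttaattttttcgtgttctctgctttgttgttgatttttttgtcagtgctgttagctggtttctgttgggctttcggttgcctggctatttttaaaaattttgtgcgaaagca
E2f1 intron, summit 21657108: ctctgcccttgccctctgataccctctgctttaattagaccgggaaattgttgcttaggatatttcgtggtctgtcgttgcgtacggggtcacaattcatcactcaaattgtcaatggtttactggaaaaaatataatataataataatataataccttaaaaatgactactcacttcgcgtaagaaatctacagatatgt

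The windows of 201 bp around the 6 summits were searched on both strands for 10 patterns. Only GTGGGAA was found, 1 time, in the strong fzr peak. It lay 27 bp from the summit, at chrX:4667052-4667058 on the minus strand of the genome, and the same pattern occurred in 1.9% of the windows of all 2841 joint peaks on the main chromosomes. None of the 6 windows held the E2F patterns TTTCCCGC and TTTGGCGC, which occurred in 0.669% and 1.16% of all windows. None held the DRE pattern TATCGATA (2.57% of all windows) or its core ATCGATA (5.49%), which every full DRE contains. None held the GAGA pattern GAGAGAG (4.58%), the Zelda pattern CAGGTAG (1.06%), the E-box CACGTG (2.39%), the C-rich box CCACCC (6.16%) or the promoter pattern GTCACAC (2.71%). With shares this low, few matches would be found in any 6 windows. The G+C content of the strong fzr window was 41.8%, above the upper quartile of 40.3% over all joint peaks. Those of the upstream fzr and CycE windows were both 30.3%, below the lower quartile of 30.8%, and those of the E2f1 windows, 36.3% and 36.8%, lay near the median of 35.3%.

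The gene fzr (FBgn0262699, chrX:4667290-4679537, minus strand) encodes the Cdh1-type activator of the anaphase-promoting complex, which destroys mitotic cyclins and is required for the endocycle in embryonic and ovarian cells. Its stronger peak, chrX:4666899-4667112, had a signal of 399.6 in the joint list, rank 53 of 2845, with the highest score of 1000. Replicate 1 alone gave a thresholded peak there with signal 183.2 (rank 52 of 1418), and replicate 2 alone one with signal 207.9 (rank 61 of 2054). The summit of replicate 1 was on the joint summit and that of replicate 2 was 9 bp away. The peak was also in the conservative list. Both replicates thus placed this site near the top of their own lists. Only 1.31% of all protein-coding genes had an entry of the joint ranked list at least as strong in the gene or within 5000 bp. The share was 1.26% in replicate 1 and 1.49% in replicate 2.

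By position the peak was not at a start of fzr. The summit, at 4667025, lay 265 bp beyond the 3′ end of fzr and 10508 bp from the nearer of its 2 TSSs. It was intergenic and 325 bp upstream of the TSS of CG3009, the gene next door. The lists give no means to assign a peak to one neighbour over another.

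The second fzr peak, chrX:4679905-4680228, was upstream. Its summit lay 530 bp before the 5′-most TSS, in the 3′ UTR of Pp2C1, a protein phosphatase gene. Its joint signal was 49.5 (rank 2435, score 962), below the list's median. Replicate 2 had it in its thresholded list with signal 43.3 (rank 1342). In replicate 1 the overlapping entry was in the ranked list only, with signal 18.1, rank 8198 of 68609 and an IDR of 0.561, and its summit lay 158 bp away. The conservative list did not include it, since its IDR there was 0.0275. Between these sites, 13042 bp apart, the strongest of several ranked entries lay in the fzr 5′ UTR, 266 bp inside the TSS. Its joint signal was 39.4 and its IDR 0.0264. Replicate 1 gave it 29.5 (rank 1995, IDR 0.175) and replicate 2 gave it 23.7 (rank 3656, IDR 0.784). The replicate summits lay 205 and 127 bp from the joint one. The next entry, in an intron, had a joint signal of 39.0 and an IDR of 0.0988.

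**Figure D1:**
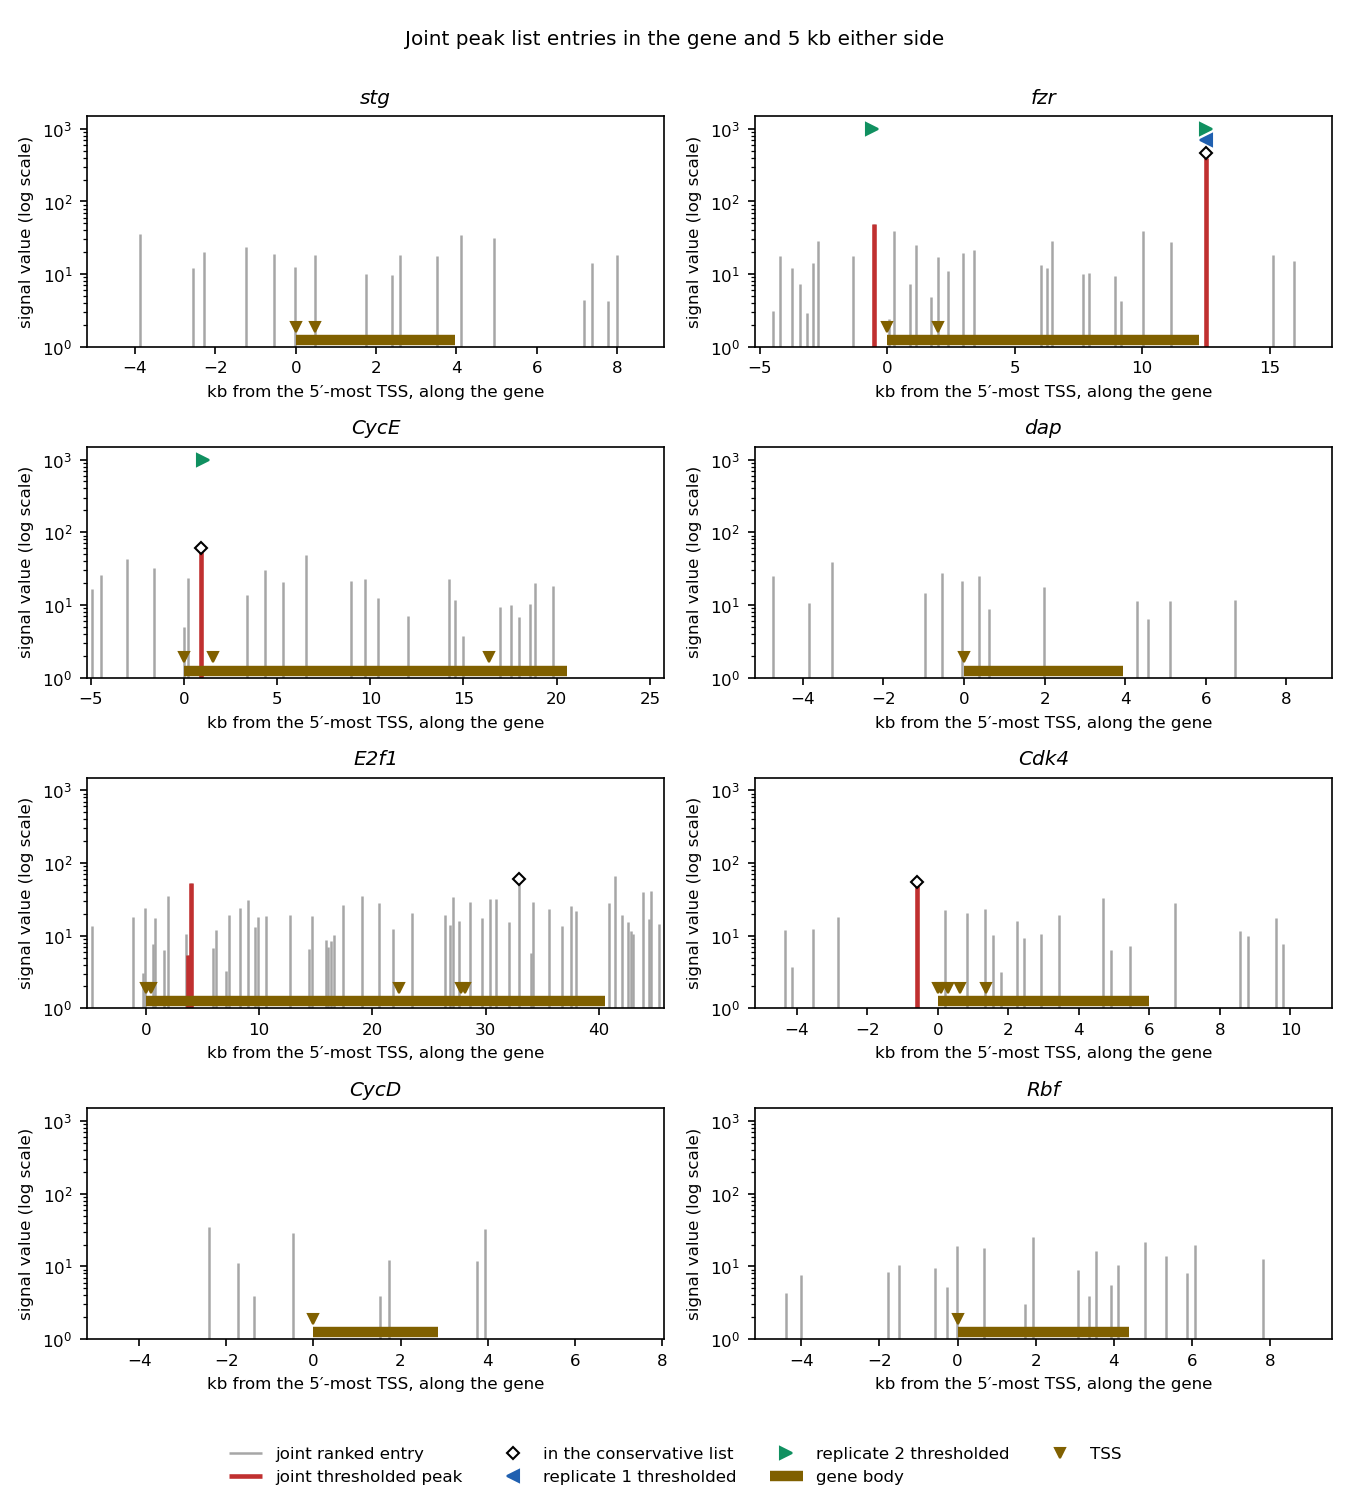
Joint list entries along each of the 8 genes, with position in kb from the 5′-most TSS on the x axis and the authors' signal value on a log y axis. Grey lines are entries of the ranked list, red lines are joint peaks and symbols mark the other lists; the fzr peak beyond the 3′ end, at 399.6, stands above every other entry, and stg, dap, CycD and Rbf have grey lines only.

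In the map of entries along the genes, each gene had ranked entries spread over its window, and the red joint peaks were few among them. CycE (FBgn0010382, chr2L:15727581-15748150, minus strand) encodes the cyclin partner of Cdk2 that triggers S phase in both the mitotic cycle and the endocycle. Its peak, chr2L:15747091-15747414, had a joint signal of 53.3 (rank 2235, score 843). The score was close to the lowest in the list, 830. The summit lay in an intron, 643 bp upstream of the middle of the gene's 3 TSSs and 897 bp downstream of the 5′-most. The non-coding RNA genes asRNA:CR44866 and lncRNA:CR44974 also start within 1000 bp of the summit. In replicate 2 a thresholded peak overlapped it with signal 32.0 (rank 1926), its summit 142 bp away. In replicate 1 it was an entry of the ranked list with signal 23.8, rank 3340 and an IDR of 0.198. The conservative list included this peak, with a score of 1000. A second CycE intron site, 5025 bp inside the gene from the same TSS, reached 48.7 in the joint ranked list with an IDR of 0.0325. Replicate 1 gave it 15.7 (rank 13298, IDR 0.833) and replicate 2 gave it 31.9 (rank 2245, IDR 0.0148), so the support was again mainly in replicate 2.

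E2f1 (FBgn0011766, chr3R:21620304-21660871, minus strand) encodes the transcriptional activator of S-phase genes, whose protein is destroyed in every S phase. Its joint peaks, chr3R:21656719-21657042 and chr3R:21656946-21657269, overlapped by 97 bp, with summits 227 bp apart. They lay in an intron 3551 and 3324 bp downstream of the nearest of the gene's 5 TSSs, and had joint signals of 52.7 (rank 2269) and 5.34 (rank 2808). In the joint ranked list of 92933 entries their ranks were 2451 and 84012. Both had a score of 907, so the score set both above the threshold although their signals differed widely. In replicate 2 a single ranked entry, with signal 37.0, rank 1776 and an IDR of 0.0209, overlapped both. In replicate 1 the entries had signals of 15.8 (rank 13097, IDR 0.414) and 16.1 (rank 12285, IDR 0.753). Neither replicate had a thresholded peak there, and neither joint peak was in the conservative list, where the stronger one had an IDR of 0.12.

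The conservative list had a different E2f1 peak, chr3R:21627766-21628089, in an intron 4765 bp downstream of the nearest TSS, with signal 51.8 and a score of 958. In the joint ranked list the same interval had a score of 790 and an IDR of 0.0125, just short of the threshold. Replicate 1 gave it 23.6 (rank 3390, IDR 0.524) and replicate 2 gave it 27.2 (rank 2859, IDR 0.0373), with summits 3 bp to either side. Here too neither replicate had a thresholded peak. The lists of the experiment thus each gave E2f1 a peak, but at sites far apart within it.

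The strongest entry of the E2f1 window was in neither thresholded list of the experiment. It lay at chr3R:21619253-21619576, 889 bp beyond the 3′ end of E2f1, and 94 and 379 bp upstream of TSSs of InR, the insulin receptor gene. Its joint signal was 67.2, rank 1705 of 92933, with a score of 1000 and an IDR of 0.00201. Replicate 1 gave it 37.1 (rank 1295, IDR 0.0124) and replicate 2 gave it 34.5 (rank 1996, IDR 0.00657), so in both replicates the IDR was lower there than at either joint E2f1 peak. In replicate 2 its score was 906, above the lowest of that thresholded list, 831, yet that list had no peak there either. The entry was 1 of 67 joint ranked entries that scored 830 or more and were absent from the joint list. Of these, 40 were on 3R, 23 on 2L, 3 on 3L and 1 on 4. 2R, the X and the Y had 0. The cause was not tested. The G+C content within 100 bp of its summit was 50.2%.

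Cdk4 (FBgn0016131, chr2R:16579470-16585448, plus strand) is the kinase partner of Cyclin D and supports growth and G1 progression. Its peak, chr2R:16578723-16579046, had a joint signal of 47.8 (rank 2514, score 955). The summit was intergenic, 585 bp upstream of the 5′-most of the gene's 5 TSSs, with no other protein-coding TSS within 1000 bp. Replicate 1 gave a ranked entry of 25.5 (rank 2764, IDR 0.202) and replicate 2 one of 25.7 (rank 3159, IDR 0.231). The replicates thus gave the site similar support, with summits 26 and 44 bp from the joint one, and in neither did it pass the threshold. The conservative list included it, with a score of 992. CycD (FBgn0010315, chrX:15906822-15909676, minus strand), the cyclin of the pair, had no peak. Its strongest joint ranked entry reached 34.5 (rank 5659, IDR 0.0798), 2393 bp upstream in the 5′ UTR of Lrp4. Replicate 1 gave that entry 13.8 (rank 19162) and replicate 2 gave it 21.8 (rank 4421). Closer to CycD, 470 bp upstream, an entry of 28.5 had an IDR of 0.765.

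**Figure D2:**
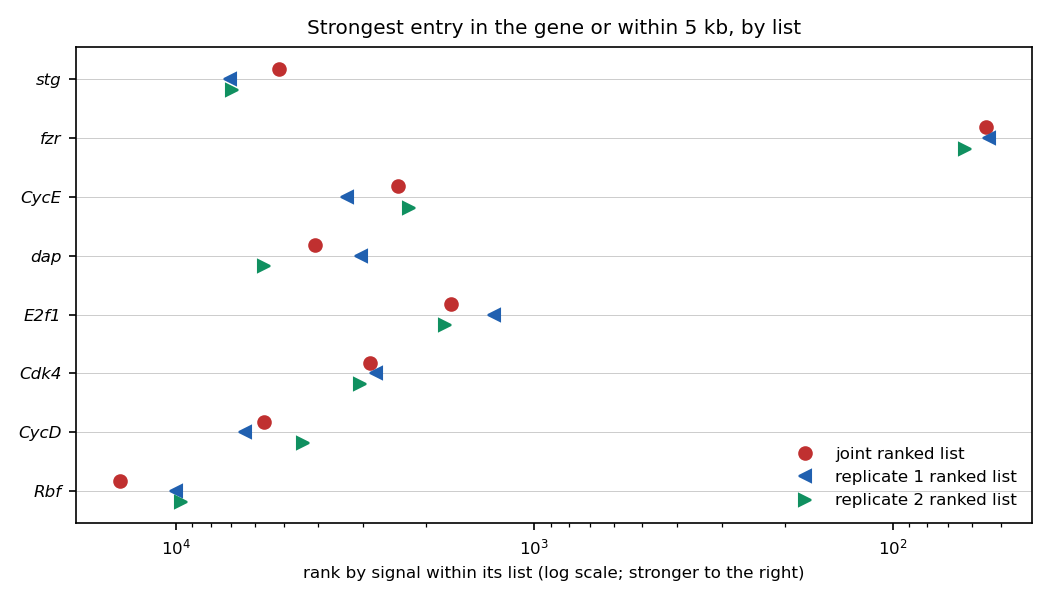
Rank of the strongest entry in each gene or within 5 kb, in the ranked list of the experiment and of each replicate; the x axis is the rank by signal on a log scale, with stronger entries to the right. The fzr entries are at ranks 55, 54 and 63, E2f1 follows between 1295 and 1776, and Rbf is the weakest at 14362 in the joint list.

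The plot of ranks shows how far fzr stood from the rest in both replicates. The E2f1 marks in it come from the entry next to InR in the joint and replicate 1 lists and from the intron in replicate 2. The gene stg (FBgn0003525, chr3R:29251826-29255800, minus strand) encodes the Cdc25 phosphatase that activates Cdk1 and limits entry into mitosis. It had no peak in any of the thresholded lists within 5000 bp. Its strongest joint ranked entry was intergenic, 3865 bp upstream, with signal 35.9 (rank 5139, IDR 0.207). There replicate 1 gave 17.2 (rank 9830, IDR 0.127) and replicate 2 gave 16.7 (rank 8700, IDR 0.654). The next, 131 bp beyond the 3′ end, reached 34.5 (IDR 0.0815). Replicate 1 gave it 18.9 (rank 7055, IDR 0.206) and replicate 2 gave it 18.2 (rank 6966, IDR 0.9), in each case the strongest entry of that replicate at stg. At the stg promoter itself replicate 2 had an entry with signal 18.0 whose summit was 0 bp from a TSS, with an IDR of 0.304. An entry as strong as the best at stg was found at 49.2% of all protein-coding genes, so stg lay near the middle of all genes.

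The nearest joint peak to stg was 9436 bp upstream, at chr3R:29265074-29265397, with signal 46.6 (rank 2554). It overlapped no thresholded peak of either replicate. It was the nearest joint peak outside the 5000 bp rule at the genes without one. Inside the rule, the most distant joint peak at any of the 8 genes was 585 bp from its gene.

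The gene dap (FBgn0010316, chr2R:9712321-9716256, plus strand) encodes dacapo, the p21/p27-type inhibitor of Cyclin E and Cdk2 whose oscillation permits repeated S phases. It came closest to the threshold among the genes without a peak. Its strongest entry, 3288 bp upstream in an exon of lncRNA:CR44292, had a joint signal of 39.5 (rank 4100), a score of 759 and an IDR of 0.0148. Replicate 1 gave 24.6 (rank 3045, IDR 0.539) and replicate 2 gave 19.6 (rank 5689, IDR 0.765). The retinoblastoma-family gene Rbf (FBgn0015799, chrX:797090-801479, minus strand), whose protein binds E2f1 and holds its targets off, had the weakest values of the 8. Its strongest joint entry, in a coding exon 1930 bp from the TSS, had a signal of 25.5 (rank 14362, IDR 0.811). Replicate 1 gave it 15.1 (rank 14766) and replicate 2 had no overlapping entry. The nearest joint peaks to dap, CycD and Rbf were 26271, 38857 and 25195 bp away.

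**Figure D3:**
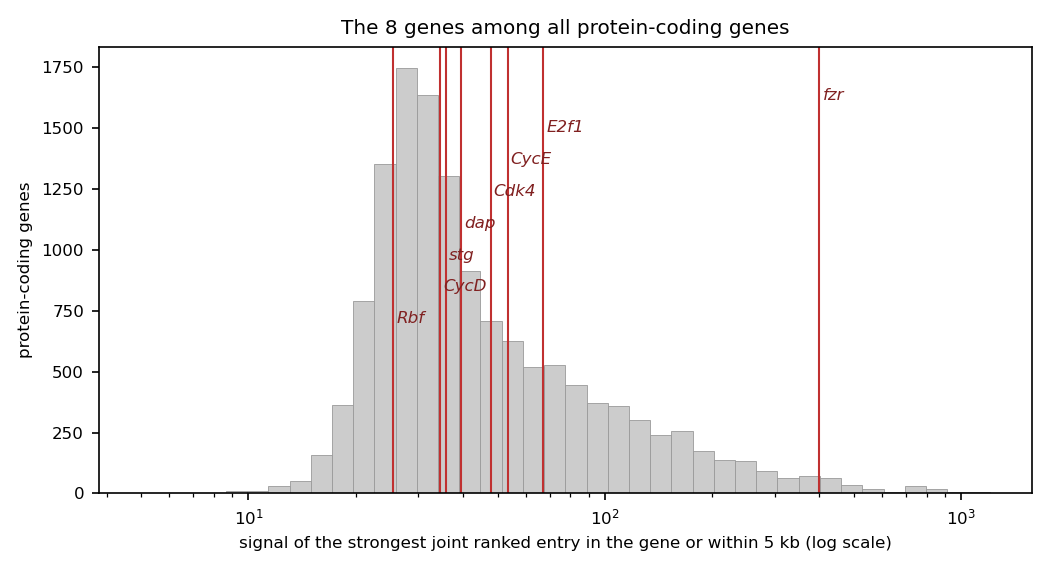
Number of protein-coding genes (y axis) by the signal of their strongest joint ranked entry in the gene or within 5 kb (log x axis), with the 8 genes as red lines. Apart from fzr at 399.6, the 8 genes fall between 25.5 and 67.2, on both sides of the median of all genes, 35.4.

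Among all 13945 genes, the histogram of strongest entries put 6 of the 8 above the median, with a median of 43.7 over the 8 and 35.4 over all genes. The share of genes with an entry at least as strong was 24.1% for E2f1, 30.9% for CycE, 34.9% for Cdk4, 43.1% for dap, 51.9% for CycD and 78.8% for Rbf. In replicate 1 the shares were 19.5% for E2f1, 38.6% for CycE, 34% for Cdk4, 36.2% for dap, 56.9% for CycD, 59.7% for stg and 70.1% for Rbf. In replicate 2 they were 24.5% for E2f1, 28.9% for CycE, 35.8% for Cdk4, 51.6% for dap, 45% for CycD, 58.2% for stg and 67.8% for Rbf. Both replicates thus had fzr, E2f1, CycE and Cdk4 above the middle of all genes and stg and Rbf below it, while dap and CycD changed sides. A long gene has a wider window and more chances of an entry. The windows were 50.6 kb for E2f1, 30.6 kb for CycE and 22.2 kb for fzr, and 12.9 to 16.0 kb for the others, against a median of 12.2 kb over all genes. The density of joint ranked entries had a median of 11.8 per 10 kb over the 8, from 6.2 at CycD to 13.9 at Rbf, against 8.65 over all genes. Rbf thus had the densest entries and the weakest strongest one.

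In the replicate lists taken alone, 1 of the 8 genes, fzr, had a thresholded peak of replicate 1, against 20.5% of all genes. A thresholded peak of replicate 2 was present at 2 of them, fzr and CycE, against 27.9% of all genes. The conservative list had a peak at 4 of them, fzr, CycE, E2f1 and Cdk4, against 32.4% of all genes. Counted over peaks, 1 of the 6 joint peaks at these genes overlapped a thresholded peak of replicate 1, against 48% of all 2841 joint peaks. Replicate 2 had a thresholded peak under 3 of the 6, against 68.9%, and both replicates had one under 1 of the 6, against 40.8%. The overlapping E2f1 pair counts as 2 of these 6 peaks, although a single replicate 2 entry lay under both. All 6 overlapped ranked entries of both replicates, as did 98.7% of all joint peaks in replicate 1 and 99.5% in replicate 2.

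**Figure D4:**
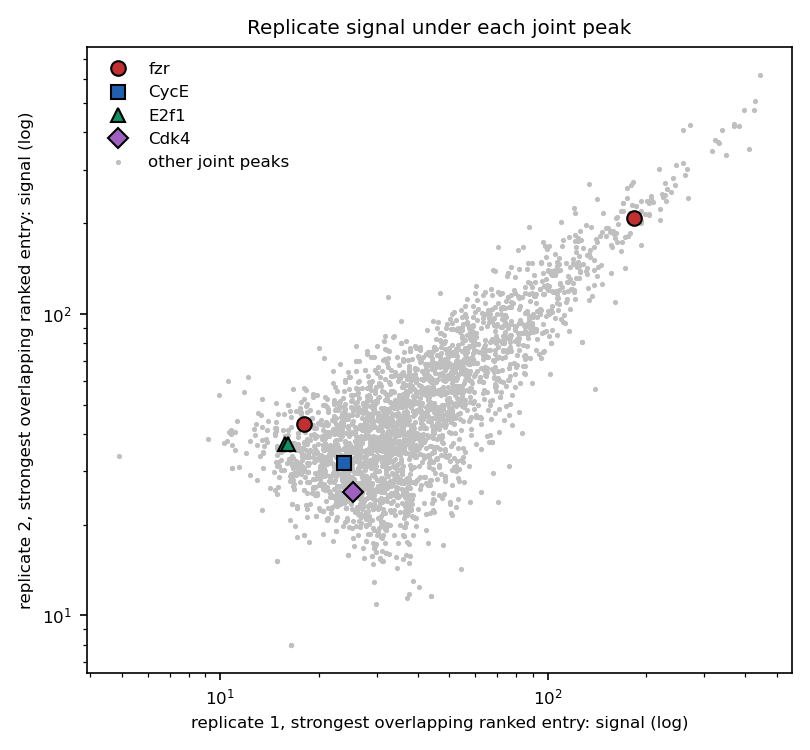
Signal of the strongest overlapping ranked entry in replicate 1 (x axis, log scale) and replicate 2 (y axis, log scale) for each joint peak; grey points are all other joint peaks. The fzr peak beyond the 3′ end (183.2 and 207.9) lies at the upper end, and the other 5 peaks of the 8 genes lie in the lower part of the cloud, between 15.8 and 25.5 in replicate 1 and between 25.7 and 43.3 in replicate 2.

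The plot of replicate signals sets these 5 weaker peaks apart from the strong fzr one. Signals of the replicates come from separately called lists and are not on a common scale, so only the order within each axis can be read. On the x axis Cdk4 was the highest of the 5 and the E2f1 pair the lowest. On the y axis the upstream fzr peak was the highest and Cdk4 the lowest.

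A further 40 cell cycle genes were examined by role. A joint peak was present at 19 of them (47.5%), and 4 (10%) had one within 1000 bp of their own TSS, against 33.1% and 13.5% of all genes. By role, a joint peak was present at 4 of 8 other regulators of the G1/S transition, 8 of 13 replication genes, 4 of 11 regulators of the G2/M transition and 3 of 8 subunits and regulators of the anaphase-promoting complex. Peaks at their own TSS numbered 1, 2, 0 and 1 in these groups. For 11 of the 19, the strongest peak lay within 1000 bp of the TSS of another protein-coding gene and not of the gene itself. That share was not computed over all genes. Of all protein-coding genes, 4620 had a joint peak by the same rule and 1877 had one within 1000 bp of their own TSS. Such placement is therefore not shown to be particular to cell cycle genes.

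**Figure D5:**
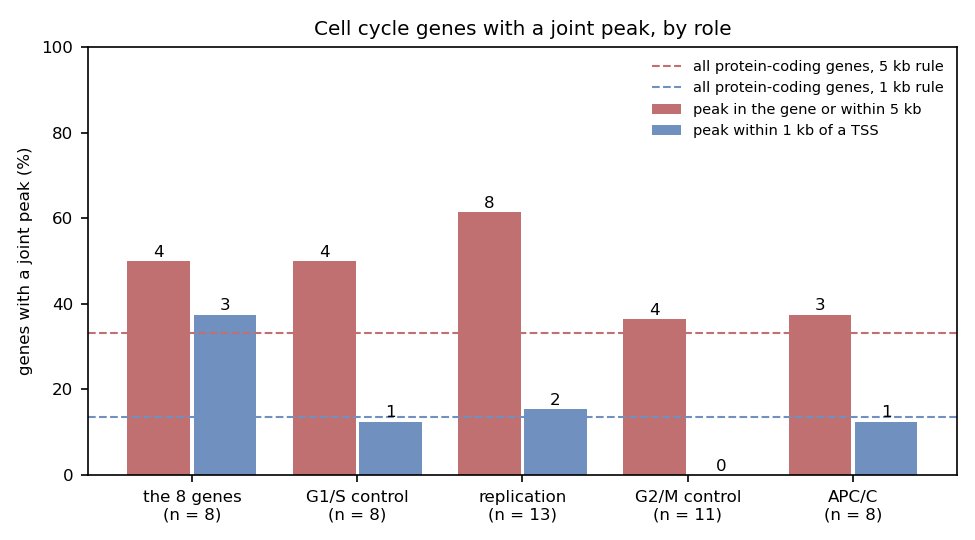
Percent of genes with a joint peak in the gene or within 5 kb (red bars) and within 1 kb of a TSS (blue bars) for the 8 genes and 4 groups of other cell cycle genes; numbers above the bars are genes, and dashed lines give all protein-coding genes. The 8 genes have the tallest blue bar, 3 of 8, and the replication group has the tallest red bar, 8 of 13.

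The bars by role rest on groups of 8 to 13 genes, and no group was tested. The groups were not matched for gene length or number of TSSs. Of the 12 genes with the strongest peaks, 3 had that peak at their own TSS, 5 had it at the TSS of another gene only, and 4 had it near no TSS. The same split over all genes was not computed. The strongest, 511.6 (rank 24), was counted for mr, a subunit of the anaphase-promoting complex, but lay at the TSS of Sox14 and 6135 bp from that of mr. CycB, the mitotic cyclin B, had an intergenic peak of 394.3 (rank 56), 3341 bp from its TSS. The replication genes Orc1 (184.5) and Mcm6 (179.4) had peaks at the TSSs of CG1602 and PIG-G and of Fum1 and ND-ASHI. Dp, the dimer partner of E2F proteins, had a peak 192 bp upstream of a TSS of its own with signal 159.6 (rank 387, also at Fsn), and 4 joint peaks in all. RnrS, the small subunit of ribonucleotide reductase, had one 180 bp upstream of its TSS with signal 130.1 (rank 545, also at CG34231). Each of these 6 peaks overlapped thresholded peaks of both replicates, as did those of Cul4 (98.6, at Tmem63 and uno), trbl (96.9, 1815 bp into the gene) and Myc (91.0, 8753 bp from the TSS). The tribbles gene, trbl, encodes a protein that promotes destruction of stg. The peaks of Cdc16 (95.3, 90 bp upstream of its TSS and shared with orb), Mcm5 (77.5) and Cdc6 (71.3, in an intron of Zasp66) had a thresholded peak in replicate 2 only. Among the 8 genes, the peaks of fzr, CycE and Cdk4 within 1000 bp of their own TSS, at 47.8 to 53.3, were weaker than the promoter peaks of Dp, RnrS and Cdc16. These 3 genes were named because their peaks were among the 12 strongest, so this order was largely set by the choice. A further gene of the 40 with a peak at its own TSS fell outside the 12, with signal 59.6.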

How the data were processed

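ChIP-seq with anti-GFP was performed on 2 biological replicates of peb-eGFP embryos, per the labels. Per the file headers, the authors deposited thresholded and ranked peak lists on dm6 for each replicate and for both replicates together, 8 lists in all, with thresholds set by IDR. The aligner, the peak caller and the kind of a further input are not given in the sources used here. Each peak's signal value was deposited by the authors and is the peak's own; it ranked peaks within a list only. The score is the scaled IDR as the authors deposited it, capped at 1000, and the deposited −log10 of the global IDR was turned into an IDR. The deposited summit offset was added to the start. The 8 last columns of each ranked list, which hold values per input, were not used. Signal tracks were not analysed here.

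Summits were placed on Ensembl release 115 (BDGP6.54), which is the same assembly as dm6, and sequences were read from the NCBI genome of that assembly. Lists were overlapped at 1 bp or more, each entry being paired with the strongest overlapping one, and each ranked list was tied to its thresholded list by identical coordinates and score. Analyses used Python 3.11.15, numpy 2.4.6, pandas 2.3.3 and matplotlib 3.10.9, and the peak assignment and pattern search were checked on simulated data. There were 2 older symbols, matched through synonyms. The members and lists were chosen with earlier results of these data known. The rule for named genes took all 8 genes, every joint peak at them, the strongest ranked entries where there was none, neighbours with a TSS within 1000 bp (those of the Mcm5 peak are not reported here), and up to 12 other cell cycle genes with the strongest joint peak. Alternatives were windows of 2000 and 10000 bp, overlap in place of the summit, the conservative list, a score of 1000, each replicate alone, promoter distances of 500 and 2000 bp, stricter overlaps, the ranked lists and pattern windows of 50 and 150 bp either side. With 2 replicates in 1 group no SD or p-value is given.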

Additional observations from a re-analysis of the deposited data

How the results depend on the processing

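Windows of 2000 or 10000 bp, overlap in place of the summit and the conservative list left 4 or 5 of the 8 genes with a peak, and stg was the gene gained at 10000 bp; the joint peaks at the 8 genes numbered 4 to 9. At 2000 bp, 4 of the 8 genes had a peak, against 22.9% of all genes. At 10000 bp, 5 had one, against 46.1%. The share of all genes was 33.5% by overlap and 32.4% in the conservative list. With only peaks of score 1000, the joint peaks at the 8 genes fell to 1 peak at 1 gene, fzr, against 29.2% of all genes. The genes with a promoter peak fell to 0 at that score. A promoter distance of 500 bp also gave 0, since all 3 promoter summits lie 530 to 643 bp from the nearest TSS of their gene. For the promoter alternatives the share of all genes was not computed. Leaving out each replicate gave 1 to 3 peaks, 1 to 2 genes and 0 to 2 genes with a promoter peak. With ranked in place of thresholded lists of the replicates, 4 of the 8 genes had a peak found in both. This count was nearly fixed in advance, since 98.7% of all joint peaks overlapped a ranked entry of replicate 1 and 99.5% one of replicate 2. It is therefore no measure of replicate support at these genes, and its share over all genes was not computed. Stricter overlaps gave 1, as reported. The percent of all genes with a peak ran from 20.5 to 46.1. Of the other 40 cell cycle genes, 12 had a peak with a window of 2000 bp and 10 to 18 without a replicate, against 19; these alternatives were chosen after seeing the data. Pattern windows of 50 or 150 bp either side gave the same single match. No paired analysis was possible because there is 1 group. The lists hold no read numbers, so weak sites were not detectable at an unknown depth and are not shown to be unbound.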

Other observations

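Joint peaks farther from the 8 genes were counted within 50 kb, a distance chosen after their values were seen. There were 7 at stg, and 8.05% of all protein-coding genes had as many or more. The strongest of the 7 had a signal of 447.2 (rank 33), overlapped thresholded peaks of both replicates and lay 37385 bp downstream of stg. Those of 173.2 and 129.8 lay 42 bp from a TSS of eEF1gamma and 672 bp from a TSS of Cyt-c1L. Upstream of stg, besides the peak at 9436 bp, 1 joint peak lay 18944 bp away with signal 65.2 (rank 1717) and a thresholded peak in replicate 2 only. The other genes had 5 (Rbf), 4 (fzr), 3 (E2f1), 2 (CycE and Cdk4) and 1 (dap and CycD), and 23.1%, 35.4%, 49.5%, 67.4% and 84.6% of all genes had as many. The joint peak nearest to CycD, with signal 260.9 (rank 143), lay 180 bp from a TSS of Gapdh2.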
